A study of Mus musculus with 16 samples.

Results

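The replication-dependent histone genes were followed here by histone class in Neuro 2a cells, a mouse neuroblastoma line, with and without hydrogen peroxide and before and after capture of abasic RNA. Members were all array probes whose platform symbol began with Hist1h, Hist2h, Hist3h or Hist4h, or with the newer class prefixes, and 5 probes of replacement histones were set aside by symbol. The rule found 58 probes of 53 genes among the 25697 probes on the array, which carried symbols of 16593 genes. They comprised 8 H1, 14 H2A, 14 H2B, 12 H3 and 10 H4 probes, of which 47 belonged to genes on chromosome 13 and 9 to genes on chromosome 3. H1f7 and H1f8, which met the rule by name, lie on other chromosomes and are known as germ cell linker histones. They were not detected on any array.

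Core histones H2A, H2B, H3 and H4 form the protein spool around which DNA is wound, and H1 binds the linker DNA between spools. Replication-dependent genes for them are transcribed mainly in S phase, when new DNA must be packaged, and lie in clusters of short genes that mostly lack introns. Their mRNAs typically end in a stem-loop bound by SLBP, the stem-loop binding protein, in place of a poly(A) tail, although polyadenylated forms are also known. Which of these forms the probes read was not tested. Coding sequences within a core histone class can be closely alike, which was not checked here, so a probe may read RNA of several genes. Each gene name below is uncertain to that extent.

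The 4 groups held 4 arrays each. Basal-total was RNA of untreated cells labelled with ARP, the aldehyde reactive probe, a biotin reagent that couples to the open sugar left where RNA has lost a base. Ox-total was the same from cells given hydrogen peroxide, and Basal-ARP and Ox-ARP were the labelled RNA of untreated and treated cells after pull-down on streptavidin beads. All 16 samples therefore carried the label, and no group held RNA passed over the beads without it. Neither the peroxide dose nor its duration is stated in the sources used here. The labels give the strain as C57BL/6J and do not say whether the replicates were separate cultures, so p-values measure only the spread between these samples, which may be technical. As values were normalized between arrays, a change on capture is a shift in relative representation, and fewer transcripts per cell cannot be told apart from fewer cells in S phase.

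Arrays had a mean intensity of 328 to 533 and 40.3 to 43.1% of probes detected, and the lowest correlation between any pair was 0.948. They lay on 2 chips of 8, with 2 arrays of each group on each chip. A given position on the chips only ever held arrays of a single group, and effects of position cannot be told apart from those of group. Of 13 marker genes of neuroblastoma and sympathetic neurons, 8 were detected on all arrays, among them Phox2a, Hand2, Dbh and Isl1, while Mycn, Nefl and Nefm were detected on none. Of 9 markers of other cells, Mbp was detected on all arrays and 7 on none. The summed intensity of the markers was 9020 to 15447 for the first list and 964 to 1324 for the second.

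Promoter windows of RefSeq (GRCm38.p6), from 250 bases before to 50 after the gene start, were present for 49 of the 53 genes. The 5 windows below belong to members that the results turn on. The H2bc12 window shares 277 bases with that of H2ac12 on the opposite strand and serves for both. H2ac20 rose after peroxide among captured RNA, H4c12 rose in total RNA and H4c6 fell most in its class on capture with peroxide. H3c14 is the gene whose tested probes behaved unlike each other. Capitals mark matches on either strand to 6 motifs: the CCAAT box, the TATAAA box and its variant TATATA, the element GGTCC known from H4 promoters, the element TTTCGCG and the octamer ATTTGCAT. A match overlapping another is capitalised as one run, as in H4c6.
H2bc12 promoter, chr13:22035571-22035870, plus strand: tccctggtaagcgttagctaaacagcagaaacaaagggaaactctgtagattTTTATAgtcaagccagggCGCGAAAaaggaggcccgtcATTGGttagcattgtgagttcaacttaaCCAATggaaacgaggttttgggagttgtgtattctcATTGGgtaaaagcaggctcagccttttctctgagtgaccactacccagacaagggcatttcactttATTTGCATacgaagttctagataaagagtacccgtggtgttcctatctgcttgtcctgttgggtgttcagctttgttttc
H2ac20 promoter, chr3:96220831-96221130, minus strand: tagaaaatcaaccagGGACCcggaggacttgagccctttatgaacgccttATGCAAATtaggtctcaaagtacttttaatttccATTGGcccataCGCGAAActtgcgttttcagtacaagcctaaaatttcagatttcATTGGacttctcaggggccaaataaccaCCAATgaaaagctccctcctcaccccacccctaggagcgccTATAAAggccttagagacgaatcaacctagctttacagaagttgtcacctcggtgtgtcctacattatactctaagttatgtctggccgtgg
H4c12 promoter, chr13:21750504-21750803, minus strand: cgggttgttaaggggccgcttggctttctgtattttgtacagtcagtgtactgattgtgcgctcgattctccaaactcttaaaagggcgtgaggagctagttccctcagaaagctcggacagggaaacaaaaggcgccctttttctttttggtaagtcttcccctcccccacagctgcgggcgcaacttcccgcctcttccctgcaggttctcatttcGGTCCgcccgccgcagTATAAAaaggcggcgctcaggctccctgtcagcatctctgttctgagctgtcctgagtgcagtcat
H4c6 promoter, chr13:23551619-23551918, minus strand: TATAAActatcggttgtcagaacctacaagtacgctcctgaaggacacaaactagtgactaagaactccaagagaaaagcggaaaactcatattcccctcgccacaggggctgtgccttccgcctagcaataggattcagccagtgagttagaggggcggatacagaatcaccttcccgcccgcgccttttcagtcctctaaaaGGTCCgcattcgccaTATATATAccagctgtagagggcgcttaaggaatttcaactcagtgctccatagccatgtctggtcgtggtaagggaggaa
H3c14 promoter, chr3:96246435-96246734, plus strand: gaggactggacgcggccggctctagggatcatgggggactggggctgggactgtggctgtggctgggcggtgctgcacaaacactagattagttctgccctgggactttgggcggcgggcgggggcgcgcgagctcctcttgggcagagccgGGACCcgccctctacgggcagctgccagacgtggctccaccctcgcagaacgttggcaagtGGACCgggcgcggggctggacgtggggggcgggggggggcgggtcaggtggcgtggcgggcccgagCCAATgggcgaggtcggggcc

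The classes differed in what their windows held. CCAAT was found in 14 of 14 H2A, 12 of 12 H2B, 7 of 7 H3 and 7 of 8 H1 windows but in 2 of 9 H4 windows, against 37.4% of all 32851 windows in the table. GGTCC was in 9 of 9 H4 windows and in 14.3 to 33.3% of those of the other classes (45.5% of all). The octamer was in 6 of 14 H2A and 7 of 12 H2B windows and in none of H1, H3 or H4 (1.74% of all). TTTCGCG was in 7 of 14 H2A and 3 of 12 H2B windows and in none of the other classes (0.849% of all). TATAAA was in 11 of 14 H2A and 6 of 9 H4 windows (13.6% of all). It was also in 4 of 8 H1, 6 of 12 H2B and 2 of 7 H3 windows. TATATA was in 5 of 8 H1 windows (5.67% of all). It was also in 2 of 9 H4, 2 of 12 H2B, 1 of 7 H3 and 1 of 14 H2A windows. Windows of several H2A and H2B genes overlap on opposite strands, so a match in the shared bases counts in both classes. These are letter matches and describe no binding.

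Detection, a detection p-value under 0.01, divided the members. Of the 58 probes, 35 (34 genes) were detected on all 4 arrays of at least 1 group and were tested: 2 of 8 H1, 10 of 14 H2A, 8 of 14 H2B, 7 of 12 H3 and 8 of 10 H4 probes. A further 20 were not detected on any array, and 28 were detected on all 16. The remaining untested probes with some signal were H2ac4 (2 Ox-total arrays and 1 Basal-ARP array), H2ac18 (1 Ox-total array) and the second H2bc18 probe (2 Ox-total arrays). A probe that passed because it was bright in 1 group alone was chosen in part by that difference, so the counts below describe tested probes, not the family. This holds for H1f5, H2ac8, H3c8 and the dimmer of the H3c14 probes, which were detected throughout Ox-total alone, and counts that involve Ox-total are also given over the other 31. Levels are normalized log2 intensities and are compared within a probe only.

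The brightest probe of the family was H2ac24, which encodes an H2A. It read 13.75, 14.04, 13.99 and 13.45 on the Basal-total arrays and 14.15, 13.40, 13.94 and 14.51 with peroxide (Ox-total), and after capture 13.51, 12.95, 12.77 and 13.44 in Basal-ARP and 13.67, 13.51, 14.08 and 13.71 in Ox-ARP. No group stood wholly apart, and the lowest readings were the Basal-ARP arrays 2 and 3. Its highest scanner intensity was 23194, below the array maxima of 24590 to 27946, and all member probes together held 0.387 to 0.806% of an array's signal. The brightest probes of the other classes were H3c13 for H3, H1f2 for H1, H2bc4 for H2B and H4c6 for H4.

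**Figure D1:**
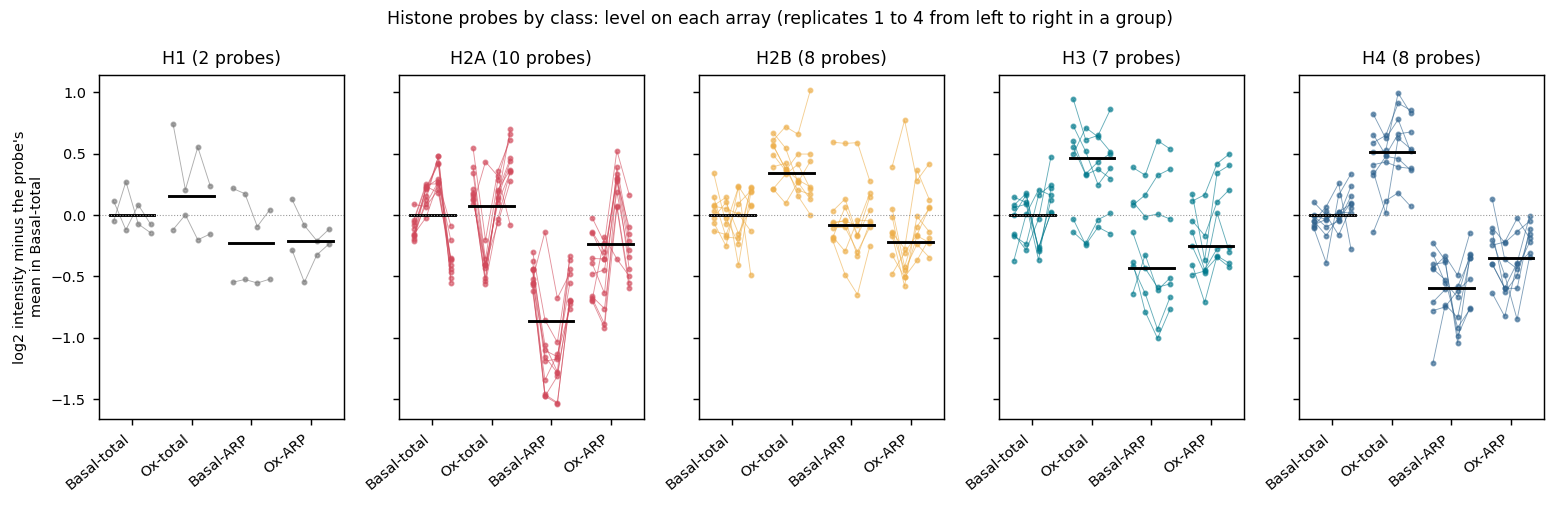
Normalized log2 intensity of each tested histone probe minus its mean in Basal-total, by class, with the 4 arrays of a group from left to right and 1 line per probe. Black bars are the median over probes of the group means. The H2A lines move in parallel from array to array, and most H4 lines lie below 0 in both captured groups.

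H2A probes varied among replicates more than the other classes, and did so together. The median replicate SD over the 10 H2A probes lay between 0.32 and 0.42 in the 4 groups, highest in Basal-ARP, against 0.08 to 0.24 over the other classes and groups. In the 9 H2A probes other than H2ac8, Ox-total array 2 was lowest and array 4 highest in 9 of 9. Basal-total array 4 was lowest and array 3 highest in 8 of 9, and Ox-ARP array 2 was lowest in 8 and array 3 highest in 9. Within Basal-ARP, array 3 was lowest in 6 and array 1 highest in 7. These 9 probes therefore do not give 9 separate readings of a comparison. Whether they read a shared set of transcripts was not tested.

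In total RNA, peroxide was accompanied by higher mean readings of H4, H2B and most H3 probes. Of 35 tested members 2 rose: H4c12 and the dimmer of the H3c14 probes. The latter was tested because Ox-total was bright, and over the other 31 members 1 rose. None fell by limma (adjusted p under 0.05). Of all 10794 tested probes 0.0463% were called higher and 0.195% lower, 0.241% in either direction. Readings of 30 of the 35 were higher on average, against 53.4% of all probes, and in 16 of 35 all 4 Ox-total arrays lay above all 4 Basal-total arrays, against 2.73% of all probes. At an unadjusted p under 0.05, 19 of 35 were higher and 0 lower, against 10.1% of all probes in either direction. Over the other 31, 26 were higher on average, 14 did not overlap and 16 had such an unadjusted p. The median log2 change was 0.33 over the members, with or without those 4, and 0.01 over all tested probes. By class it was 0.51 for H4 (0.54 and 0.61 on chips 1 and 2), 0.47 for H3 (0.36 and 0.42) and 0.35 for H2B (0.45 and 0.28). It was 0.16 for H1 (0.15 and 0.16) and 0.07 for H2A (-0.14 and 0.29, and -0.04 without Ox-total array 4). The H3 exceptions were its brightest probes, H3c13 (-0.10 ± 0.12) and the brighter H3c14 probe (-0.13 ± 0.14). All tested H4 and H2B probes had a mean log2 level under 10. Split at that level after the values were seen, the members had medians of 0.02 (brighter) and 0.41 (dimmer). Whether the rise goes with class or with brightness was not tested.

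H4c12, a gene for H4, read 6.47, 6.38, 6.43 and 6.63 on the Basal-total arrays and 7.07, 7.13, 7.39 and 7.33 with peroxide (Ox-total), and after capture 6.04, 5.95, 5.56 and 5.72 in Basal-ARP and 6.35, 5.85, 5.99 and 6.33 in Ox-ARP. Every Ox-total array lay above every array of the other groups. Its rise with peroxide was 0.75 ± 0.13 (SE, n = 4 per group; 1.68-fold; adjusted p = 0.0141), and it did not pass without Basal-total array 2, Ox-total array 3 or Ox-total array 4 (adjusted p up to 0.0791).

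The dimmer H3c14 probe read 5.67, 5.70, 5.24 and 5.83 in Basal-total, where 3 of 4 arrays detected it, and 6.55, 6.22, 6.26 and 6.47 in Ox-total. After capture it was not detected on any array, with readings of 4.97, 5.29, 5.0 and 5.10 in Basal-ARP and 5.12, 5.15, 5.26 and 5.18 in Ox-ARP. The Ox-total arrays, through which it was chosen for testing, lay above all others, and the rise was 0.77 ± 0.12 (adjusted p = 0.00573). The brighter H3c14 probe read 11.98, 11.85, 12.10 and 12.61 in Basal-total and 12.10, 11.89, 12.04 and 11.98 in Ox-total, which overlapped (-0.13 ± 0.14, adjusted p = 0.784). Probes assigned to the same gene thus gave different answers, and which transcript each reads was not tested.

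H4c6 came next to the threshold in the same comparison. It read 7.28, 7.39, 7.58 and 7.05 on the Basal-total arrays and 7.98, 7.81, 7.99 and 8.0 with peroxide (Ox-total), and after capture 6.62, 6.72, 6.74 and 6.98 in Basal-ARP and 6.69, 6.50, 6.93 and 7.02 in Ox-ARP. All Ox-total arrays were above all Basal-total arrays, with a difference of 0.62 ± 0.13 that missed the threshold (adjusted p = 0.0503). H2bc18 (0.75 ± 0.16, adjusted p = 0.061) and H4c11 (0.68 ± 0.16, adjusted p = 0.0854) also missed it with no overlap between groups. H3c8 was not detected on any Basal-total array and was at least 1.12-fold higher in Ox-total, without passing (adjusted p = 0.144). Of the H2A probes, 0 of 10 passed, also at an unadjusted p under 0.05, and 0 of 10 had groups that did not overlap.

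The number of members called in total RNA depended on how variation between chips and arrays was handled. It was 6 with the chip as a block, 8 with array weights and 0 without normalization. It was 1 without Basal-total array 2, Ox-total array 3 or Ox-total array 4, and 4 without Basal-ARP array 3 or Ox-ARP array 2, which enter only through the estimate of spread.

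**Figure D2:**
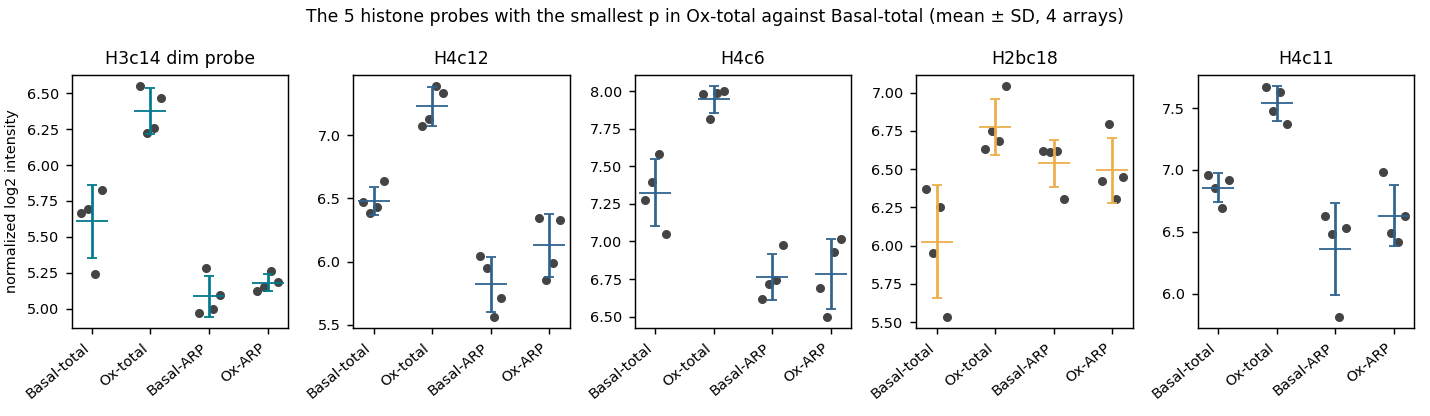
Normalized log2 intensity of the 5 histone probes with the smallest p in Ox-total against Basal-total. Points are arrays, and the bar and whiskers the mean ± SD of 4 arrays. In each panel the 4 Ox-total arrays lie above the 4 Basal-total arrays, and in all but H2bc18 the captured groups lie below Ox-total.

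On capture from untreated cells, H2A and H4 probes fell, most H3 probes fell and most H2B probes did not pass. Among the 35 tested members 24 were lower and 2 higher in Basal-ARP than in Basal-total, against 15.2% of all probes called lower and 16.7% called higher. All 10 H2A and all 8 H4 probes fell, as did 4 of 7 H3, 1 of 2 H1 and 1 of 8 H2B probes. Of the 24, 21 were among the 31 members not chosen through Ox-total alone. The median change over members was -0.52, against 0.03 over all tested probes. It was -0.86 for H2A (-0.83 and -0.92 on chips 1 and 2), -0.60 for H4 (-0.40 and -0.62), -0.43 for H3 (-0.37 and -0.49) and -0.08 for H2B (-0.07 and -0.12).

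H2ac12, an H2A gene, fell furthest. It read 11.80, 12.09, 12.09 and 11.38 in Basal-total, 11.28, 10.37, 10.30 and 11.15 in Basal-ARP, 12.05, 11.43, 11.94 and 12.19 in Ox-total and 11.18, 11.08, 11.92 and 11.29 in Ox-ARP. The Basal-ARP arrays were all below the Basal-total arrays, by 1.06 on average (-1.06 ± 0.24, 2.09-fold, adjusted p = 0.00317). H2ac21 (-1.03 ± 0.27) and H2ac15 (-1.02 ± 0.25) fell by similar amounts, and H2ac20 fell by 0.84 ± 0.19 (adjusted p = 0.00326). In 7 of the 10 H2A probes the groups did not overlap, against 12.8% of all probes with every Basal-ARP array below. The calls of H2ac24 (-0.64 ± 0.21) and H2ac8 (-0.45 ± 0.15) were lost in 5 and 6 of the 16 fits that left out a single array, with adjusted p up to 0.0934 and 0.0846.

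Among H4 genes the 8 changes lay between -0.78 for H4c18 and -0.35 for H4c4. H4c14 fell by 0.67 ± 0.12 (adjusted p = 0.000371). It read 5.80, 5.93, 5.86 and 6.00 in Basal-total and 5.12, 5.15, 5.28 and 5.38 in Basal-ARP, where no array detected it, so the fall was at least 1.36-fold. H4c12 fell by 0.66 ± 0.13 (adjusted p = 0.00103). The H4 groups overlapped in H4c18 only, and the call of H4c11 was lost without Basal-total array 1 or 4 or Basal-ARP array 3 (adjusted p up to 0.0729).

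Within H3 the genes divided. H3c6 fell by 0.74 ± 0.14 (adjusted p = 0.000729) and H3c1 by 0.66 ± 0.13 (adjusted p = 0.000813), and H3c4 and the dimmer H3c14 probe also fell. H3c13 went the other way. It read 12.43, 12.36, 12.76 and 12.84 in Basal-total and 12.98, 12.92, 13.20 and 13.13 in Basal-ARP, with no overlap, and rose by 0.46 ± 0.12 (adjusted p = 0.0079). In treated cells it read 12.46, 12.36, 12.56 and 12.61 in Ox-total and 12.71, 12.76, 13.01 and 13.09 in Ox-ARP, again without overlap (0.40 ± 0.12, adjusted p = 0.0214). The call in treated cells was lost without any of Ox-total arrays 1 or 2 or Ox-ARP arrays 3 or 4, and also with cyclic loess or the authors' values. Both calls of H3c13 were lost with median scaling (0.29 and 0.26) and without normalization (0.19 and 0.22), so its rise is relative to the scaling used.

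The other member called higher on capture was H2bc18, an H2B gene. It read 6.37, 5.95, 6.25 and 5.54 in Basal-total and 6.62, 6.61, 6.62 and 6.30 in Basal-ARP (0.51 ± 0.16, adjusted p = 0.0206), and the ranges overlapped. Without Basal-total array 4, its lowest reading, the change was 0.35 and did not pass (adjusted p = 0.0746), and without Basal-total array 2 it did not pass either. A second H2bc18 probe, untested, read lower after capture. Its mean was 5.34 in Basal-total and 4.57 in Basal-ARP, and no array of either group detected it. In Ox-total and Ox-ARP its mean was 5.71 and 4.67. Readings assigned to this gene thus went in different directions. Among tested H2B probes, H2bc14 was the one that fell (-0.40 ± 0.11, adjusted p = 0.0125). Of the linker histones, H1f5 was detected on 2 of 4 Basal-total arrays and on no captured array. It fell by 0.54 ± 0.12, at least 1.11-fold (adjusted p = 0.00293). H1f2 did not pass (0.08 ± 0.10, adjusted p = 0.528).

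**Figure D3:**
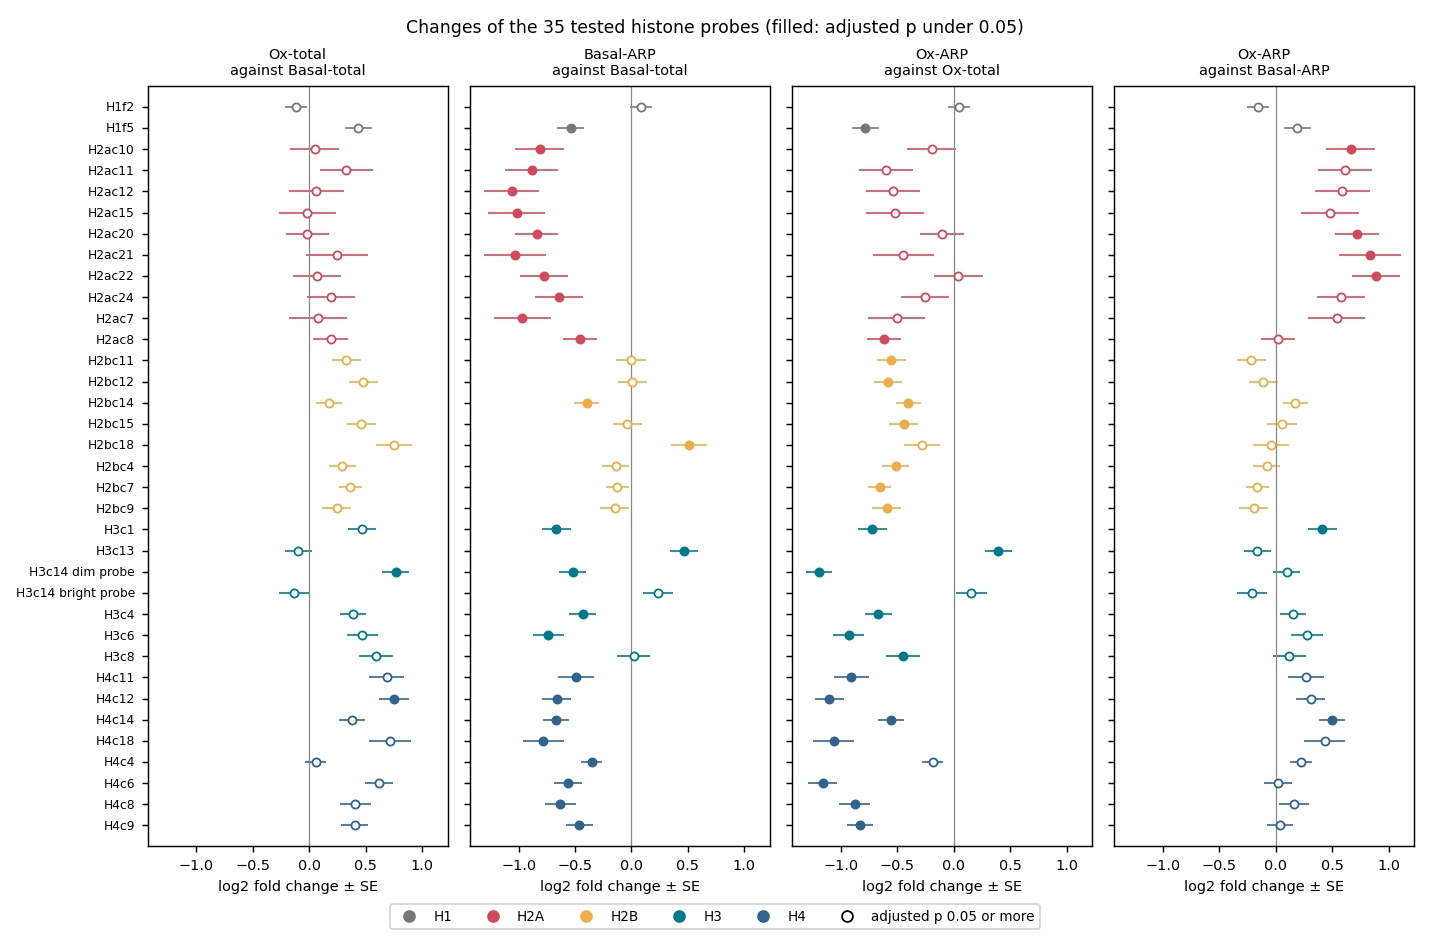
Log2 fold change ± SE of the 35 tested histone probes in the 4 comparisons between pairs of groups, coloured by class, with filled points for adjusted p under 0.05. Most H2A points lie furthest left in Basal-ARP against Basal-total and furthest right in Ox-ARP against Basal-ARP, and the H2B points are left of 0 in Ox-ARP against Ox-total.

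On capture from treated cells most H2B probes fell along with H3 and H4, and most H2A probes read lower without passing. Of 35 tested members 21 were lower and 1 higher in Ox-ARP than in Ox-total, against 13.4% of all probes called lower and 13.6% called higher. These were 7 of 8 H4, 7 of 8 H2B, 5 of 7 H3, 1 of 2 H1 and 1 of 10 H2A probes. They include all 4 members detected throughout Ox-total alone, the high group here, and 17 of the other 31 fell. The median change was -0.55 over members and 0.03 over all probes. It was -0.89 for H4 (-0.88 and -0.99 on chips 1 and 2) and -0.67 for H3 (-0.73 and -0.60). For H2B it was -0.53 (-0.71 and -0.37) and for H2A -0.48 (-0.57 and -0.38). In H2A 9 of 10 changes lay below 0, with a median standard error of 0.23, against 0.13 in H2B. The contrast of calls between H2A and H2B therefore does not show that these classes differed here. This comparison and the previous one use different total and captured arrays, and 14 of the 35 members were lower in both, against 7.7% of all probes. They were 7 H4 probes, 4 H3 probes and 1 probe each of H1, H2A and H2B, with H1f5, H2ac8 and the dimmer H3c14 probe among them.

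The H4 probes gave the clearest separation. H4c6, with the readings above, fell by 1.16 ± 0.13 (2.24-fold, adjusted p = 5.1e-06), H4c12 by 1.10 ± 0.13 (adjusted p = 1.08e-05) and H4c18 by 1.06 ± 0.18 (adjusted p = 0.000434). In 7 of 8 H4 probes every Ox-ARP array lay below every Ox-total array, against 13.5% of all probes. H4c4 was the H4 probe that did not pass (-0.19 ± 0.09, adjusted p = 0.155).

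Among H3 genes the dimmer H3c14 probe, which like H3c8 and H1f5 was tested because Ox-total was bright, fell by 1.19 ± 0.12 to below detection, at least 1.8-fold (adjusted p = 1.76e-06). H3c6 fell by 0.93 ± 0.14 (adjusted p = 0.000112), and H3c1, H3c4 and H3c8 fell as well. H3c8 was not detected on any Ox-ARP array, and its fall was at least 1.13-fold, which did not pass without Ox-total array 2 or 3 or Ox-ARP array 2 (adjusted p up to 0.117). H1f5 fell by 0.78 ± 0.12, at least 1.43-fold (adjusted p = 0.000163).

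Among H2B genes, H2bc7 read 8.68, 8.81, 8.55 and 8.77 on the Basal-total arrays and 9.27, 9.08, 8.99 and 8.93 with peroxide (Ox-total), and after capture 8.63, 8.66, 8.37 and 8.64 in Basal-ARP and 8.57, 8.25, 8.46 and 8.36 in Ox-ARP. The Ox-total arrays were highest and did not overlap the Ox-ARP arrays (-0.66 ± 0.10, adjusted p = 0.000174). H2bc9 fell by 0.59 ± 0.13 (adjusted p = 0.00264), and H2bc12, H2bc11, H2bc4, H2bc15 and H2bc14 fell by between 0.40 and 0.58. Without Ox-ARP array 2, H2bc14 and H2bc15 did not pass (adjusted p = 0.0551 and 0.0667). H2bc18 did not pass (-0.28 ± 0.16, adjusted p = 0.198).

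The H2A probe called lower was H2ac8 (-0.62 ± 0.15, adjusted p = 0.00579), which entered the test through Ox-total and was detected on 1 of 4 Ox-ARP arrays, so its value is set in part by the floor of detection. Without it 0 of 9 H2A probes passed. The other 9 lay between -0.60 and 0.04, with H2ac11 nearest the threshold (-0.60 ± 0.24, adjusted p = 0.0687). This count rested on single arrays. It was 2 without Ox-total array 2, 5 without Ox-ARP array 3, and 5 without both Basal-total array 4 and Ox-total array 2, the lowest arrays of their groups in nearly all H2A probes.

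**Figure D4:**
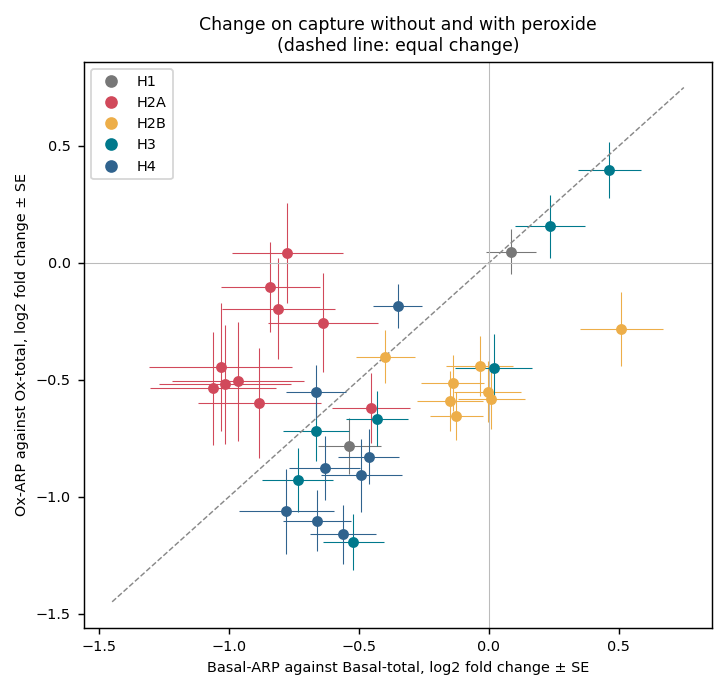
Log2 fold change ± SE on capture without peroxide (horizontal axis) and with it (vertical axis) for the 35 tested histone probes, coloured by class. The H2A points other than H2ac8 lie above the dashed line of equal change, and the H2B, H3 and most H4 points lie on or below it.

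Whether peroxide altered the change on capture was tested by the interaction, the change with peroxide minus that without. Of 35 members 1 was called, the dimmer H3c14 probe (-0.67 ± 0.17, adjusted p = 0.0435), against 1.72% of all probes called lower and 0.76% called higher. As neither captured group detected it, this value sets its rise in total RNA against a floor and does not measure its capture, and over the other 31 members 0 were called. The call was lost in 10 of the 16 fits that left out a single array. H2bc7 (-0.53 ± 0.14, adjusted p = 0.0573) and H2bc18 (-0.79 ± 0.22, adjusted p = 0.066) did not pass. With the replicate number as a block 5 members were called lower: H2bc7 (adjusted p = 0.0227), H2bc12 (0.0253) and H2bc18 (0.0371), with H4c6 (0.0352) and the dimmer H3c14 probe. With the chip as a block they were 4, H2bc12 being absent, and H2bc7 also passed with median scaling, cyclic loess, no background correction, the authors' values or array weights. The class medians were 0.51 for H2A, -0.49 for H2B, -0.32 for H4 and -0.19 for H3. H2A lay above 0 in 9 of 10 probes and H2B below 0 in 8 of 8. Of all 10794 tested probes 5434 lay above 0 and 5360 below. The H2A probes move together from array to array, so these counts are not of separate readings and test nothing. On chips 1 and 2 the class medians were 0.47 and 0.54 for H2A, -0.64 and -0.28 for H2B, -0.43 and -0.21 for H4, and -0.36 and 0.07 for H3. No single H2A probe passed, and H2ac22 (0.82 ± 0.30, adjusted p = 0.15) had the highest value.

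Among captured RNA alone, H2A readings were higher with peroxide. In Ox-ARP against Basal-ARP 6 of 35 members rose (17.1%, against 13.8% of all probes) and 0 fell (against 15.4%). The share of rises over the members thus lay near that of all probes. At an unadjusted p under 0.05, 13 were higher and 0 lower, against 40.7% of all probes in either direction. The 6 called were H2ac22, H2ac21, H2ac20 and H2ac10, with H3c1 and H4c14. The 4 of H2A move together from array to array and are not separate readings. The Basal-ARP arrays, of which 2 and 3 were the lowest in H2A, also enter the comparison on capture without peroxide. The H2A rise here and the H2A fall there are thus not separate results. The median change was 0.60 for H2A (0.33 and 0.87 on chips 1 and 2), 0.24 for H4 (0.14 and 0.31), 0.12 for H3 (-0.0034 and 0.31) and -0.10 for H2B (-0.20 and -0.04, but 0.05 without normalization), against 0.02 over all probes.

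H2ac22 read 11.76, 11.14, 10.93 and 11.87 in Basal-ARP and 12.18, 11.98, 12.73 and 12.37 in Ox-ARP, beside 12.04, 12.18, 12.47 and 12.12 in Basal-total and 12.33, 11.77, 12.35 and 12.64 in Ox-total. The captured groups did not overlap, and the Ox-ARP readings lay in the range of total RNA or just above it. The rise was 0.89 ± 0.21 (1.85-fold, adjusted p = 0.00543). H2ac20 read 13.03, 12.48, 12.43 and 13.03 in Basal-ARP and 13.44, 13.23, 13.89 and 13.30 in Ox-ARP, without overlap (0.72 ± 0.19, adjusted p = 0.00998). H2ac21 (0.83 ± 0.27, adjusted p = 0.0304) and H2ac10 (0.66 ± 0.22, adjusted p = 0.0296) rose, and both calls were lost without Basal-ARP array 2 or 3 or without Ox-ARP array 3 or 4.

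Outside H2A, H4c14 read 5.65, 5.68, 5.87 and 5.71 in Ox-ARP against 5.12, 5.15, 5.28 and 5.38 in Basal-ARP, at least 1.21-fold higher (0.50 ± 0.12, adjusted p = 0.00422). H3c1 read 6.54, 6.32, 6.81 and 6.50 in Ox-ARP and 6.38, 6.16, 5.87 and 6.13 in Basal-ARP, with overlap (0.41 ± 0.13, adjusted p = 0.0214), and did not pass without Basal-ARP array 3 or Ox-ARP array 3. The number of members called higher ranged from 3 without Basal-ARP array 3 or Ox-ARP array 3 to 11 without Basal-ARP array 1.

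Genes for H2A and H2B often lie head to head and share a promoter. Overlapping windows were found for 6 such pairs, in 4 of which both probes were tested. For these the H2A reading minus the H2B reading was taken on each array, and its change between groups was tested by exact two-sided permutation of the arrays. The difference itself sets probes of unequal brightness side by side and has no meaning alone. On capture without peroxide it fell by 0.88 ± 0.37 (SE, n = 4) for H2ac11 and H2bc11, 1.07 ± 0.37 for H2ac12 and H2bc12, 0.98 ± 0.35 for H2ac15 and H2bc15, and 0.84 ± 0.28 for H2ac7 and H2bc7. The exact p was 0.0571 for the first 3 pairs and 0.0286, the smallest the design allows, for the last. After adjustment over 16 tests it was 0.152 for each. A pair could pass after adjustment only if most of the 16 tests reached that smallest p. The permutation test therefore cannot decide whether the difference changed. That test leaves the array numbers aside. Within same-numbered arrays the difference fell in 4 of 4 for each gene pair, by 0.04 to 2.03 for H2ac12 and H2bc12. The exact sign-flip test, two-sided and added after the values were seen, gave p = 0.125. This is the smallest that 4 pairs of arrays allow, so that test could not pass either. The H2A probes move together, so the gene pairs are not separate readings. With peroxide the changes were -0.05, 0.04, -0.08 and 0.15 in the same order, with a fall in 2 of 4 same-numbered arrays for each. The genes of a pair shared the promoter window printed above for H2bc12 or its like. On capture without peroxide the H2A probes were called lower and their H2B partners did not pass. That contrast of calls does not show that partners differed, and the direct tests above could not decide it.

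**Figure D5:**
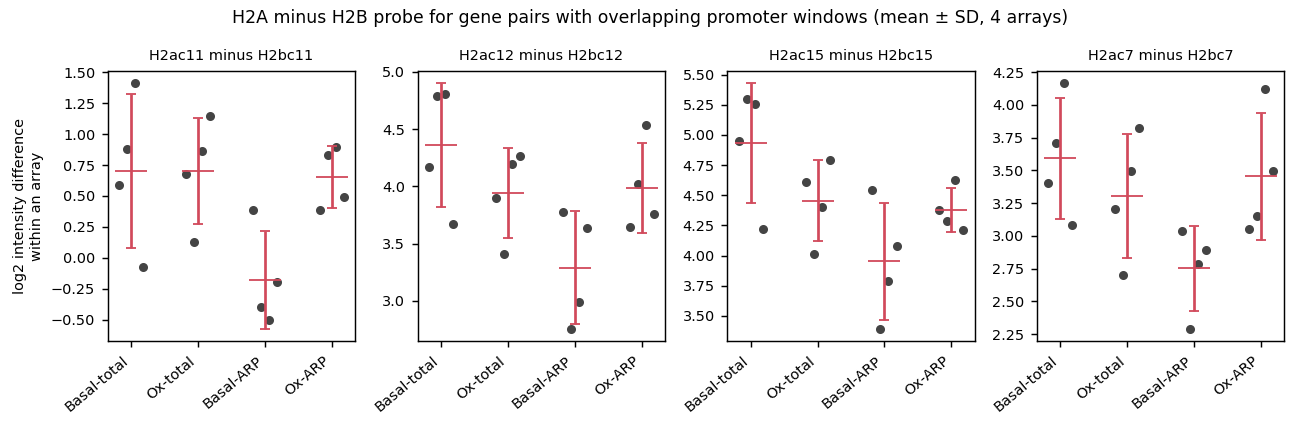
Difference in normalized log2 intensity between the H2A and the H2B probe of 4 gene pairs with overlapping promoter windows. Points are arrays, and the bar and whiskers the mean ± SD of 4 arrays. The Basal-ARP means are the lowest in every panel, with ranges that overlap Basal-total in all but the H2ac7 pair.

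Lists of related genes were compared by counts of probes, beside the shares of all probes. In total RNA no probe of the lists of histone mRNA processing, S phase, replacement histone and histone chaperone genes was called by limma. As 0.241% of all probes were called there, lists of this size say nothing about it. Of 30 probes for 3′ end processing and turnover of histone mRNA, 0 were called in Ox-total against Basal-total. At an unadjusted p under 0.05 there was 1, against 10.1% of all probes. In Basal-ARP against Basal-total 2 rose (6.67%, against 16.7% of all probes) and 5 fell (16.7%, against 15.2%). In Ox-ARP against Ox-total 1 rose and 1 fell (3.33% each, against 13.6% and 13.4%), and in Ox-ARP against Basal-ARP 4 rose (13.3%, against 13.8%) and 2 fell (6.67%, against 15.4%). Eri1, an exonuclease that trims histone mRNA ends, rose by 0.62 ± 0.13 on capture from untreated cells (adjusted p = 0.00164) and fell by 0.74 with peroxide among captured RNA. Tut7, a terminal uridylyltransferase, showed the same order with 0.48 ± 0.08 and -0.57 ± 0.08. Eri1 and Tut7 were the 2 that rose on that capture and the 2 that fell among captured RNA. The 5 that fell on that capture were probes of Nelfe, Upf1 and Xrn2. The 4 that rose among captured RNA were probes of Nelfe, Ints11 and Ncbp2. Nelfe thus went the other way, with rises among captured RNA of 0.61 ± 0.10 and 0.65 ± 0.13 in its 2 probes. Lsm10 and Lsm11, components of the U7 particle that cleaves histone pre-mRNA, passed in no comparison.

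S phase genes gave 43 probes. None was called in Ox-total against Basal-total, with a median of -0.02. At an unadjusted p under 0.05 there were 0, against 10.1% of all probes. On capture without peroxide 11 rose (25.6%, against 16.7% of all probes) and 3 fell (6.98%, against 15.2%), and with it 5 rose (11.6%, against 13.6%) and 4 fell (9.3%, against 13.4%). Between captured groups 3 rose (6.98%, against 13.8%) and 10 fell (23.3%, against 15.4%). Mcm4, a subunit of the replicative helicase, rose by 0.31 ± 0.11 in its bright probe on capture without peroxide (adjusted p = 0.0407) and did not pass with peroxide among captured RNA (-0.27 ± 0.11, adjusted p = 0.0776). Its other 2 probes were detected throughout Basal-ARP alone. Ccne2, a cyclin of S phase entry, gave 0.52 ± 0.13 and -1.23 ± 0.13.

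Replacement histones, which are made outside S phase from polyadenylated mRNAs, gave 9 probes, with 0 called in total RNA by limma. At an unadjusted p under 0.05 there were 0, against 10.1% of all probes. On capture without peroxide 1 was higher (11.1%, against 16.7% of all probes) and 2 lower (22.2%, against 15.2%). With it 1 was higher (11.1%, against 13.6%) and 3 lower (33.3%, against 13.4%). Between captured groups 2 were higher (22.2%, against 13.8%) and 3 lower (33.3%, against 15.4%). H3f3b, an H3.3 gene, rose on both captures (0.35 ± 0.09 and 0.45 ± 0.09). H3f3a, the other H3.3 gene, fell on capture with peroxide by 0.79 ± 0.13 in 1 of its probes and by 0.47 ± 0.08 in the other. H2az1 fell on both captures (-0.33 ± 0.11 and -0.59 ± 0.11).

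Member genes were short, with a median genomic span of 496.5 bp, and other short transcripts are set beside them. Of 35 tested probes of other genes with a span under 1 kb, 19 fell (54.3%) and 0 rose on capture without peroxide (median -0.36). With it 19 fell (54.3%) and 1 rose (2.86%, median -0.39), and in total RNA 0 rose and 1 fell (2.86%, median 0.11). Of 64 probes of cytosolic ribosomal proteins, which also come from short mRNAs, 21 fell (32.8%) and 3 rose (4.69%) on capture without peroxide (-0.22). With it 25 fell (39.1%) and 1 rose (1.56%, median -0.18), and in total RNA 0 rose and 1 fell (1.56%, median 0.02). Of all probes 15.2% fell and 16.7% rose on capture without peroxide, 13.4% and 13.6% with it, and 0.195% and 0.0463% in total RNA. The part of length in the members' changes was not tested.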

How the data were processed

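Bead arrays were read for 16 samples of 4 groups, assigned from the sample titles. The authors deposited a scanner table of intensity on a linear scale and a detection p-value for each probe, processed with GenomeStudio 2010.2 per the submitters' processing notes. Their second deposited table of intensity, with means of 376 in every column and medians of 12.3 to 16.3, was used as an alternative with a floor of 1. Its scale is linear in the scanner signal, and its background step stays unknown. Scanner values were corrected with normexp, the controls being inferred from detection p-values (798 or more negative controls), offset by 16, quantile normalized and taken to log2 in limma 3.58.1 (R 4.3.3). The offset draws changes of dim probes towards 0, and the number of arrays limits the precision.

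The filter asked for detection (p-value under 0.01) throughout at least 1 group of 4 arrays, and the 10794 probes that passed were fitted with lmFit and eBayes as 4 group means over 16 arrays (12 residual and 5.4 prior degrees of freedom). A member was called under 0.05 after Benjamini-Hochberg adjustment across the 10794. Median standard errors were 0.12 for a difference and 0.17 for the interaction. "At least" folds compare the mean of the bright group with a floor for the dim group, the mean over its arrays of the probe's reading or the lowest detected reading, whichever was higher. Symbols came from the platform annotation (23978 probes with a symbol, 1719 without), and all 58 members matched RefSeq. The pipeline was tested on simulated data.

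Same-numbered arrays deviated together (correlation over 0.1 in all 4 numbers) in both capture comparisons, with correlations from 0.16 to 0.70, but not in Ox-total against Basal-total (-0.26 for replicate 4) or Ox-ARP against Basal-ARP (0.02 for replicate 2). No 2 arrays held identical values. Members, lists and named genes were chosen with earlier results of these data known. Named with values were members called in the peroxide comparisons or the interaction, the 2 smallest p of each class on each capture, members raised on capture, the brightest probe of each class, genes with several tested probes and up to 4 genes of a list. Alternatives covered the filter, normalization, background, chip, replicate number, array weights, probes per gene and single arrays. Proteins and probe sequences were not used here.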

Additional observations from a re-analysis of the deposited data

Results flagged for a closer look

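In 6 cases 1 array stood away from the other 3 of its group by more than Dixon's limit allows. With 140 probe and group combinations examined, chance alone flags about 1 in 20 groups. Normalized log2 readings were as follows. H2bc11 read 8.65 on Basal-ARP array 4 and 8.38 to 8.42 on the others. H2bc18 read 6.30 on the same array and 6.61 to 6.62 on the others. On Basal-ARP array 3, H2bc7 read 8.37 against 8.63 to 8.66, and H2bc9 read 7.85 against 8.04 to 8.05. On Ox-total array 2, H2bc15 read 7.65 against 7.78 to 7.79, and H4c6 read 7.81 against 7.98 to 8.0. Of these, 5 were H2B probes.

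The dimmer H3c14 probe was the member whose change on capture differed between untreated and treated cells by the interaction test (-0.67, adjusted p = 0.0435). It was tested because it was detected throughout Ox-total, and no captured array detected it, so the value sets its rise in total RNA (0.77) against a floor and does not measure its capture.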

How the results depend on the processing

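No called probe and no median over all members changed sign. Of 800 class medians 21 did, 16 of them of H1, which rests on 2 probes: H2A in Ox-total against Basal-total was -0.14 on chip 1 and -0.04 without Ox-total array 4, H2B in Ox-ARP against Basal-ARP 0.05 without normalization, and H3 -0.0034 on chip 1 there and 0.07 on chip 2 in the interaction. Of the values of named probes under the alternatives, 1630 kept their call and 165 kept their direction without passing. Members called higher in Ox-total against Basal-total (2) numbered 1 when detection on all 16 arrays or throughout 2 groups (chosen after seeing the data) was asked, 4 with median scaling, 0 without normalization, 4 without background correction, 1 with the authors' values, 6 with the chip as a block, 0 on chip 1 or chip 2 alone, 7 with the replicate number as a block, 8 with array weights, and 1 to 4 with single arrays left out; the median was 0.21 without the filter. In Basal-ARP against Basal-total, 11 and 7 were lower on chips 1 and 2 alone and 14 without H2A. There 1 was higher without the filter, 0 with median scaling or without normalization, 1 and 0 on chips 1 and 2, and 1 to 2 with single arrays left out, and the median was -0.14 without the filter, -0.30 without background correction, -0.71 with the authors' values and -0.40 without H2A. In Ox-ARP against Ox-total, 13 were lower without normalization and 11 on chip 2. There 0 were higher with median scaling, no normalization, cyclic loess, the authors' values, either chip alone or without Basal-total array 4 and Ox-total array 2 (chosen after seeing the data, as was leaving out H2A), and 0 to 1 with single arrays left out. Its median was -0.40 without the filter and -0.43 on chip 2. In Ox-ARP against Basal-ARP, 1 was lower with array weights, and 12 were higher with median scaling, 3 without normalization, 10 with the chip and 10 with the replicate number as a block, 1 and 3 on chips 1 and 2, 2 without H2A, and 3 to 11 with single arrays left out. Its median was 0.30 without normalization and 0.05 on chip 1. In the interaction, 0 were lower without the filter, with detection on all 16 arrays or throughout 2 groups, without normalization, on either chip alone or with the brightest probe or the mean per gene, 2 with median scaling or cyclic loess, 4 with the chip and 5 with the replicate number as a block, 3 with array weights, and 0 to 2 with single arrays left out. Its median was -0.07 with detection on all 16 arrays, -0.05 on chip 2 and -0.37 without H2A. The replicate block changed no count in either capture comparison. In the other comparisons the samples share only a number, and 9 of 16 arrays correlated best with their own number. A chip alone holds 2 arrays a group and no normalization leaves the arrays' overall brightness in; for the other changes the cause was not tested. Without normalization the median of all probes in Ox-ARP against Basal-ARP shifted to 0.183, and with median scaling to 0.130, so the rises there are in part relative to that shift. It was 0.133 in the interaction without normalization and 0.114 in Ox-ARP against Ox-total with the authors' values. Members near the detection limit give bounds only.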

Other observations

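Histone chaperones, the carriers that hand histones to DNA, gave 23 tested probes. In total RNA 0 were called by limma after peroxide, against 0.241% of all probes (4 at an unadjusted p under 0.05, against 10.1%). On capture without peroxide 4 rose (17.4%, against 16.7% of all probes) and 1 fell (4.35%, against 15.2%). With it 5 rose (21.7%, against 13.6%) and 1 fell (4.35%, against 13.4%). Nap1l1, an H2A and H2B chaperone, rose by 0.66 ± 0.09 and 0.71 ± 0.09 in its most responsive probe. Chaf1a, the large subunit of the assembly factor that follows replication, did not pass on capture without peroxide (-0.17 ± 0.10, adjusted p = 0.197) and rose by 0.38 ± 0.10 on capture with it, and its interaction passed (0.56 ± 0.14, adjusted p = 0.048). Among captured RNA 1 rose (4.35%, against 13.8% of all probes) and 6 fell (26.1%, against 15.4%) with peroxide. Rbbp7, a histone-binding subunit, fell by between 0.97 and 1.10 in 3 of its 4 probes. Hira, a chaperone of H3.3, was not detected on any captured array by 1 probe, which was at least 1.93-fold and 1.61-fold lower on the captures without and with peroxide (adjusted p = 8.57e-07 and 3.53e-06), while its other probe gave -0.19 ± 0.09 and 0.13 ± 0.09 and did not pass.

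Division of the members by brightness, made after their values were seen, separated them as follows. In the 10 probes with a mean log2 level of 10 or more the median change in total RNA was 0.02, and in the 25 dimmer probes 0.41. All Ox-total arrays lay above all Basal-total arrays in 16 of the 25 dimmer probes, against 2.73% of all probes. The 25 include the 4 members detected throughout Ox-total alone. On capture the medians were -0.79 and -0.46 without peroxide and -0.15 and -0.62 with it. Of the 10 brighter probes 7 were H2A, and all tested H2B and H4 probes were among the 25 dimmer ones. Class and brightness were thus not separated.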
